A study of Homo sapiens with 6 samples.

Results

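The mitochondrial ribosomal protein genes were followed in TC28a2, an immortalised line of human chondrocytes, in cells that carried either a vector overexpressing the transcription factor ZEB1 or a control vector. RNA was taken 48 h after transfection, from 3 ZEB1 libraries and 3 control libraries numbered as replicates 1 to 3. The genes were chosen by name: every protein-coding gene whose symbol starts with MRPL or MRPS followed by a digit, with pseudogenes left out. This gave 77 of the 28395 genes in the table, 49 MRPL genes, named for the large subunit, and 28 MRPS genes, named for the small subunit. The cells come from a single established line, the vectors' promoters and the transfected share of cells are not given in the labels, and nothing there says that replicates were separate cultures. The p-values therefore reflect how far these particular libraries spread, and that spread may be technical.

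The mitochondrial ribosome, or mitoribosome, translates the few mRNAs of the mitochondrial genome, which encode core subunits of the respiratory chain and of ATP synthase. Its ribosomal RNAs are made in the mitochondrion, whereas all of its proteins are encoded in the nucleus, translated in the cytosol and imported. The large subunit forms peptide bonds and the small subunit reads the mRNA. Some of the proteins descend from bacterial ribosomal proteins and others are found only in mitochondria. Cartilage chondrocytes are known for living at low oxygen and relying largely on glycolysis. ZEB1 is a zinc finger repressor that binds E-boxes with the letters CAGGTG.

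Many promoters of nuclear genes for mitochondrial proteins are known to hold sites for ETS-family factors such as GABPA, for NRF1 and for YY1. RefSeq promoters (GRCh38.p14, 250 bases before to 50 bases after the start) were found for 69 of the 77 genes. Those of MRPL10, MRPL13, MRPL15, MRPL2, MRPL21, MRPL23, MRPL35 and MRPS28 were not matched, and for the 11 genes with several starts the first listed was used. The stretches below were picked after the expression values were seen, from genes high and low in the ZEB1 libraries, to show where the letters lie. Capitals mark exact matches, on either strand, to CCGGAAG (ETS), AAGATGGCG (YY1) and GCGCNTGCG (NRF1), and each stretch is written 5′ to 3′ on the strand of its gene. The 5 large subunit stretches are MRPL51 (chr12:6493333-6493392, minus strand), MRPL27 (chr17:50373185-50373244, minus), MRPL54 (chr19:3762622-3762681, plus), MRPL58 (chr17:75012610-75012669, plus) and MRPL36 (chr5:1799858-1799957, minus). The small subunit stretches are MRPS21 (chr1:150293801-150293860, plus), MRPS34 (chr16:1773135-1773214, minus), MRPS26 (chr20:3045992-3046051, plus) and MRPS18A (chr6:43687792-43687851, minus).
MRPL51: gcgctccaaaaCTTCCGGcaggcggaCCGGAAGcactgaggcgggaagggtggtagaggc
MRPL27: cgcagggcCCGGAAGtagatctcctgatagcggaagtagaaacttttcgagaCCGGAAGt
MRPL54: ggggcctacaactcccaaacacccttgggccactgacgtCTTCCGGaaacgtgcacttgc
MRPL58: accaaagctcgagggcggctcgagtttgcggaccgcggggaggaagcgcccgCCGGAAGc
MRPL36: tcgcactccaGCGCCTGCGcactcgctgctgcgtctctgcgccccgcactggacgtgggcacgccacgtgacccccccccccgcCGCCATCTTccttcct
MRPS21: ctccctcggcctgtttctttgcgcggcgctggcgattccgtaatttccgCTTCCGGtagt
MRPS34: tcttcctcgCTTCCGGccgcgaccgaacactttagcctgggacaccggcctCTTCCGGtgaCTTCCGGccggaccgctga
MRPS26: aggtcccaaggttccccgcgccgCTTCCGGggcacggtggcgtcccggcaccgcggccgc
MRPS18A: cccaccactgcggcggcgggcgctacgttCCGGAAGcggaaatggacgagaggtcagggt

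The ETS letters stood in 29 of the 69 matched promoters (42.0%), against 20.7% of the 9139 promoters of genes tested here and 10.7% of all 27305 promoters. The YY1 letters stood in 13 (18.8%), against 4.34% of the tested genes' promoters and 1.85% of all. ETS and YY1 matches can share the bases AAG. The NRF1 letters stood in 11 (15.9%), against 16.2% and 8.05%, and the E-box CAGGTG stood in 13 (18.8%), against 17.1% and 20.6%. The E-box and NRF1 shares of these genes were thus close to those of the tested genes' promoters, while the ETS and YY1 shares were above them, in each case without a test. MRPS34, whose values hardly differed between the vectors, had 3 ETS matches within the stretch printed above, and MRPS26 and MRPS18A, which lay lower in the ZEB1 libraries on average, had 1 each. A match is a string of letters and not a site of binding.

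The libraries held 1277632, 1621270 and 3316228 counts in ZEB1 replicates 1, 2 and 3, against 5832751, 5359200 and 5878640 in the controls. ZEB1 itself had 13805, 21844 and 23143 counts in the ZEB1 libraries, against 203, 114 and 131 in the controls, a log2 fold change of 8.79. It made up 1.08%, 1.35% and 0.698% of the counts of ZEB1 replicates 1, 2 and 3. Of 14 chondrocyte markers 1 had enough counts to be tested, SOX9, at 61.1 to 78.2 CPM (counts scaled for library size and TMM factors, and not for gene length) in the ZEB1 libraries and 54.2 to 82.9 CPM in the controls. The defining matrix genes ACAN and COL2A1 were at 0 in all ZEB1 libraries and at 0 to 8 counts in the controls, so the cartilage matrix programme was absent or nearly so. Summed chondrocyte markers spanned 61.1 to 82.6 CPM in the ZEB1 libraries and 56.3 to 86.8 CPM in the controls, leukocyte markers 5.33 to 14.0 CPM and 11.5 to 15.8 CPM, and epithelial markers 1.29 to 3.57 CPM and 2.57 to 3.65 CPM. The 5 endothelial markers summed to 8.36 to 8.89 CPM in the ZEB1 libraries, above the controls at 1.44 to 2.77 CPM, which was 10 to 29 counts against 9 to 17 counts, and their part in the results was not tested. The table also lists 37 genes of the mitochondrial genome, among them the mitoribosome's RNAs and every mRNA it translates, at 0 in all 6 libraries, so neither could be set beside the protein genes. The reason for those zeros was not tested.

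Large subunit mRNAs lay mostly higher in the ZEB1 libraries, but no gene of either subunit passed the test across all genes. In edgeR's quasi-likelihood test with Benjamini-Hochberg adjustment, 0 of the 49 large and 0 of the 27 tested small subunit genes had an adjusted p under 0.05, where 0.00883% of the 11329 tested genes, ZEB1 alone, passed as higher and 0% as lower. The smallest adjusted p was 0.193 among the large subunit genes and 0.276 among the small subunit genes. At an unadjusted p under 0.05, 20 large subunit genes were higher (40.8%) and 0 lower, and 6 small subunit genes were higher (22.2%) and 2 lower (7.41%). Over all tested genes these shares were 5.83% higher and 3.57% lower. The subunit genes were counted more deeply, with a median mean CPM of 122 (large) and 109 (small) beside 24.6 over all tested genes. The median standard error was 0.19 in each subunit beside 0.33 over all tested genes. The shares thus compare genes of unlike precision. With library size as the only scaling 10 large and 2 small subunit genes were higher, with 0 large and 3 small subunit genes lower, beside 3.06% higher and 7.12% lower over all tested genes.

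The median log2 fold change was 0.32 for the large subunit and 0.20 for the small subunit, beside -0.01 over all tested genes. Without ZEB1 replicate 1 the medians were 0.23 and 0.07, and with library size as the only scaling they were 0.19 and 0.06, beside -0.14 over all genes. By sign alone 42 large subunit genes were higher and 7 lower, and 21 small subunit genes were higher and 6 lower, where 48.5% of all tested genes were higher and 51.5% lower. Without ZEB1 replicate 1, 11 small subunit genes were lower by sign, as were 51.6% of all genes tested. Values ran from -0.23 to 0.75 in the large subunit and from -0.46 to 0.63 in the small subunit, with a median standard error (SE) of 0.19 per gene in each. These values are small: 10 of 49 large and 2 of 27 small subunit genes exceeded 0.5 on the log2 scale. Over all tested genes 1446 of 11329 did so. All 3 ZEB1 libraries lay above all 3 controls in 14 large subunit genes (28.6%) and 3 small subunit genes (11.1%), against 6.96% of all tested genes. They lay below all 3 controls in 1 gene of each subunit, MRPL49 and MRPS2, where 8.16% of all tested genes did so. Whether the subunits differed from each other was not tested.

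**Figure D1:**
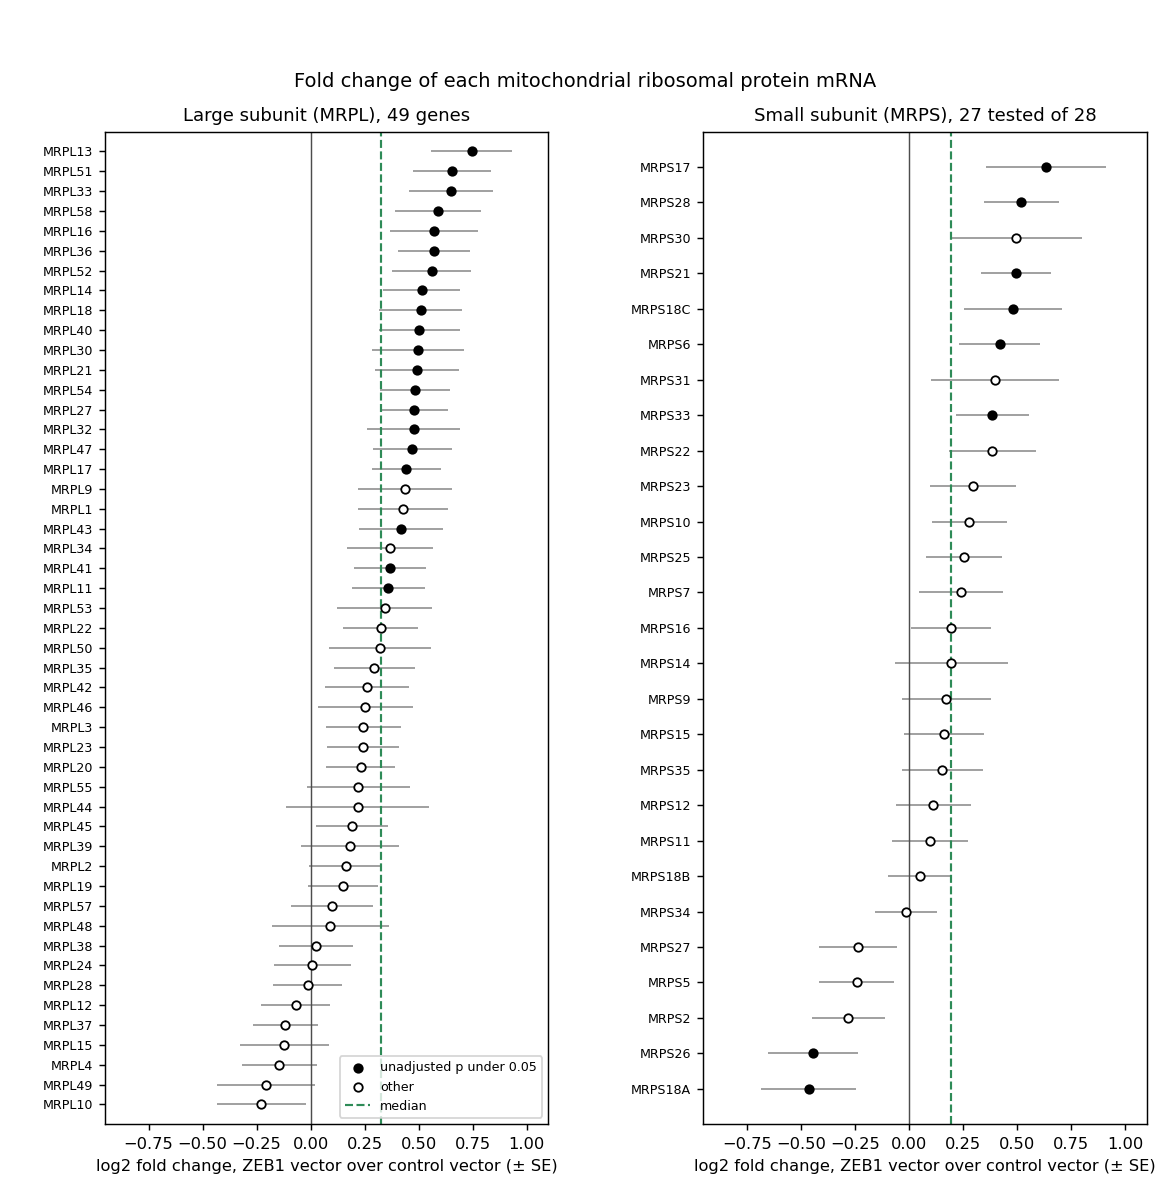
Log2 fold change (ZEB1 vector over control vector, x axis) of each tested gene, large subunit on the left and small subunit on the right, with bars for ± SE, filled points for an unadjusted p under 0.05 and a dashed line at the median. The large subunit points lie mostly right of 0 around a median of 0.32, and the small subunit points spread from -0.46 to 0.63 around 0.20.

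The counts at an unadjusted p depended on single libraries. The number of large subunit genes higher was 11 without ZEB1 replicate 1, 10 without control replicate 1 and 13 without control replicate 3, beside 4.39%, 3.05% and 3.77% of all genes tested. For the small subunit it was 3 without ZEB1 replicate 1, 2 without control replicate 1, 2 without control replicate 2, beside 4.43% of all genes tested, and 3 without control replicate 3. Small subunit genes lower numbered 4 of 27 without ZEB1 replicate 3, beside 9.41% of all genes tested. They numbered 0 without ZEB1 replicate 2 or control replicate 2, beside 3.64% and 2.25%, and 1 without ZEB1 replicate 1, control replicate 1 or control replicate 3, beside 4.14%, 1.74% and 1.83%. Without ZEB1 replicate 3 the edgeR test, at the same adjusted threshold, called 12 large subunit genes higher, MRPL13, MRPL14, MRPL16, MRPL18, MRPL21, MRPL27, MRPL32, MRPL33, MRPL36, MRPL51, MRPL52 and MRPL58. It then also called MRPS6, MRPS18C, MRPS21 and MRPS28 higher and MRPS26 lower, where 2.4% of all genes tested passed as higher and 0.984% as lower. DESeq2, another count test, called 8 large subunit genes of the 29 it gave an adjusted p, and 2 small subunit genes of 15, with 10.8% of the 1765 genes that had one passing as higher. The 10 were MRPL13, MRPL14, MRPL27, MRPL33, MRPL36, MRPL51, MRPL52, MRPL54, MRPS21 and MRPS28.

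The 3 ZEB1 libraries did not carry this shift equally. Each gene's log2 CPM was set against its mean in the controls, and the median over the 49 large subunit genes was 0.57, 0.38 and 0.13 in ZEB1 replicates 1, 2 and 3, against -0.08, 0.13 and -0.02 in control replicates 1, 2 and 3. ZEB1 replicate 3 thus lay level with control replicate 2, and replicates 1 and 2 lay above all controls. In ZEB1 replicates 1, 2 and 3, 42, 39 and 35 of the 49 genes were above their control mean, against 10, 43 and 22 in the controls. Of all 11329 tested genes, 5279, 5552 and 5799 were above theirs in the ZEB1 libraries, against 5698, 5756 and 5862 in the controls.

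For the 27 small subunit genes the medians were 0.49, -0.00 and 0.08 in ZEB1 replicates 1, 2 and 3, against -0.06, 0.05 and 0.02 in the controls, so that replicate 1 alone stood apart by this measure. Over all tested genes the medians were -0.06, -0.01 and 0.01 in the ZEB1 libraries and 0.00, 0.01 and 0.01 in the controls. The 2 libraries with the higher large subunit medians were also those with the fewest counts and the larger ZEB1 shares. In these 3 libraries the depth and the level of ZEB1 cannot be told apart. With all libraries thinned to 1277632 counts the medians were 0.35 and 0.28 for the large and the small subunit. Thinning makes the totals equal and cannot undo other differences between libraries that go with depth. The part of such differences in the shift, and that of the ZEB1 level, was not tested. In bulk RNA, fewer cells of a kind and less RNA per cell cannot be told apart either.

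**Figure D2:**
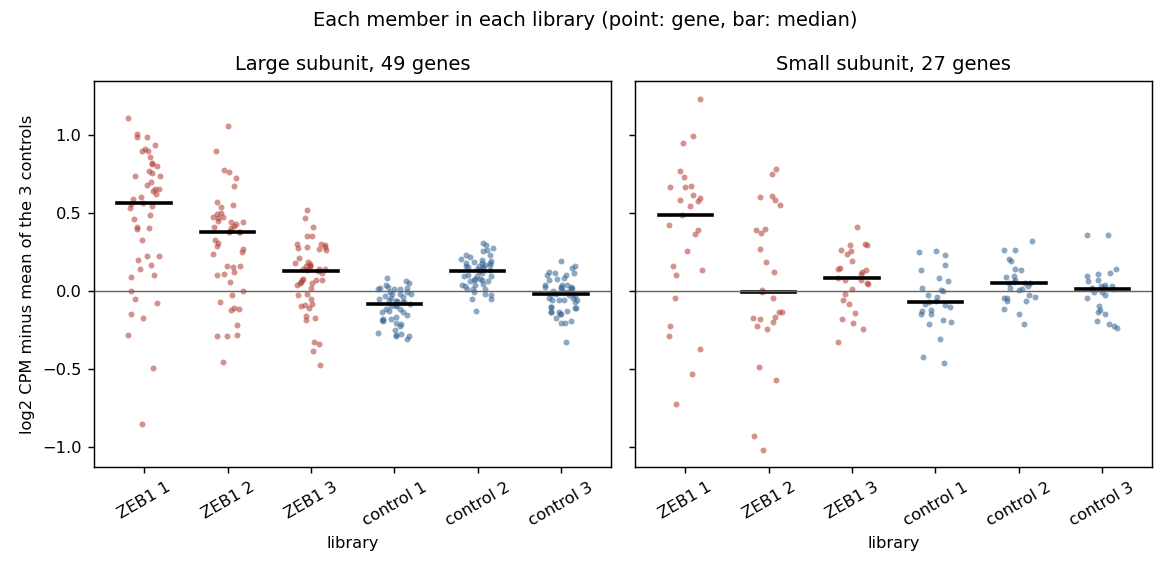
Log2 CPM of each tested gene minus its mean in the 3 controls (y axis), by library (x axis), for the large subunit (49 genes, left) and the small subunit (27 genes, right), with a bar at the median. The large subunit medians are 0.57, 0.38 and 0.13 in ZEB1 replicates 1, 2 and 3, and the points of the ZEB1 libraries are spread more widely than those of the controls.

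Above the control mean in all 3 ZEB1 libraries were 28 of the 49 large and 7 of the 27 small subunit genes, beside 17.2% of all tested genes. Below it in all 3 were 3 genes of each subunit, beside 18.5% of all tested genes. With ZEB1 replicates 1 and 2 both left out, which sets ZEB1 replicate 3 alone against the controls, the median log2 fold changes were 0.12 and 0.07, beside -0.03 over all genes.

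As a share of all counts in a library, without TMM scaling, the 49 large subunit genes took 0.841%, 0.756% and 0.713% in ZEB1 replicates 1, 2 and 3, against 0.644%, 0.729% and 0.660% in the controls. The means were 0.770% ± 0.065 with the ZEB1 vector and 0.678% ± 0.045 with the control vector (SD, n = 3 each), and ZEB1 replicate 3 lay below control replicate 2. The difference of 0.092 percentage points was 0.0566 without ZEB1 replicate 1. The 28 small subunit genes took 0.373%, 0.330% and 0.369% in the ZEB1 libraries, against 0.356%, 0.366% and 0.354% in the controls. Their means were 0.357% ± 0.024 and 0.358% ± 0.006 (SD, n = 3 each), a difference of -0.0012 percentage points that was smaller than the spread. It was 0.0124 without ZEB1 replicate 2 and 0.0024 without control replicate 2, so its sign rests on single libraries. The large subunit share thus lay higher on average with overlapping groups.

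The widest exact 95% binomial interval of a large subunit share ran from 0.826% to 0.857%, in ZEB1 replicate 1, and such intervals cover counting error only. Large subunit counts per small subunit count were 2.26, 2.29 and 1.93 in ZEB1 replicates 1, 2 and 3, against 1.81, 1.99 and 1.87 in the controls. The ratio averaged 2.16 ± 0.197 with the ZEB1 vector and 1.89 ± 0.094 with the control vector (SD, n = 3 each), with ZEB1 replicate 3 below control replicate 2.

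**Figure D3:**
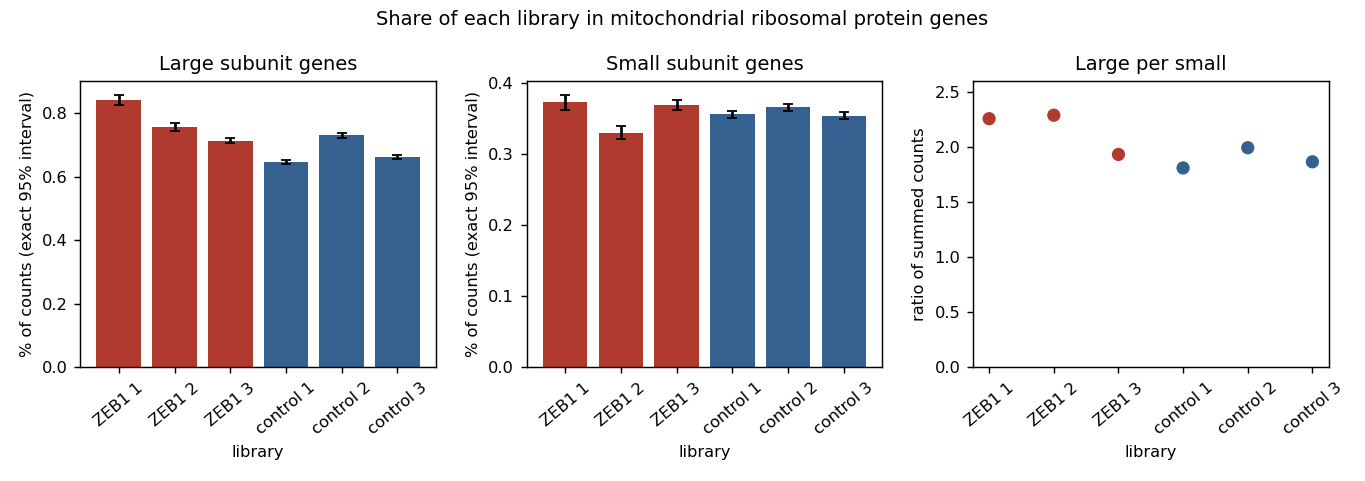
Share of each library's counts in large subunit genes (left) and small subunit genes (middle), as bars in percent with exact 95% binomial intervals, and large subunit counts per small subunit count (right), by library. The large subunit share is 0.841% in ZEB1 replicate 1 and 0.644% in control replicate 1, the highest and lowest of the 6 libraries, while the small subunit share stays between 0.330% and 0.373%.

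Among large subunit proteins of bacterial descent, MRPL13, the counterpart of bacterial L13, had 161, 192 and 113 CPM in ZEB1 replicates 1, 2 and 3, against 90.6, 94.4 and 90.2 CPM in the controls. The groups did not overlap, and the controls lay close together. On the log2 scale the fold change was 0.75 (SE 0.19, edgeR adjusted p = 0.193). MRPL33, of the L33 family, had 451, 311 and 233 CPM in the ZEB1 libraries, against 212, 235 and 181 CPM in the controls. ZEB1 replicate 3 lay just below control replicate 2, and on the log2 scale the difference was 0.65 (SE 0.19, edgeR adjusted p = 0.239).

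MRPL36 (chr5:1798385-1801434) belongs to the L36 family of very small proteins and had 301, 288 and 223 CPM in the ZEB1 libraries, against 150.0, 199 and 196 CPM in the controls. All ZEB1 libraries lay above the controls, with a log2 fold change of 0.57 (SE 0.17, edgeR adjusted p = 0.235). Its locus overlaps NDUFS6, a respiratory complex I gene, and without a stated strand setting reads of the overlap cannot be assigned. MRPL27 (chr17:50367867-50373184) is the counterpart of a protein that in Escherichia coli reaches the site of peptide bond formation. It had 355, 280.4 and 256 CPM in the ZEB1 libraries, against 198, 223 and 215 CPM in the controls, without overlap (log2 fold change 0.48, SE 0.16, edgeR adjusted p = 0.273). Its stretch above holds 2 ETS matches, and that of MRPL36 a YY1 and an NRF1 match.

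MRPL51 (chr12:6491886-6493262), a large subunit protein found only in mitochondria, had 578, 482 and 319 CPM in the ZEB1 libraries, against 282, 294 and 297 CPM in the controls. The ZEB1 libraries all lay above the controls, though replicate 3 by little (log2 fold change 0.65, SE 0.18, edgeR adjusted p = 0.220). MRPL41, also specific to mitochondria, had 548, 435 and 413 CPM in the ZEB1 libraries, against 292, 437 and 352 CPM in the controls. Here control replicate 2 lay among the ZEB1 libraries (log2 fold change 0.37, SE 0.17, edgeR adjusted p = 0.512). MRPL51, MRPL41 and MRPL12 were the large subunit genes with the highest mean CPM.

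Translation factors dock at a stalk of the large subunit. MRPL12, the stalk protein, had 406, 353 and 473 CPM in the ZEB1 libraries, against 396, 512 and 386 CPM in the controls, with a log2 fold change of -0.07 (SE 0.16) whose sign turned under some alternatives. MRPL11, at the base of the stalk, had 216, 152 and 181 CPM in the ZEB1 libraries, against 129, 163 and 135 CPM in the controls, with overlap (log2 fold change 0.36, SE 0.17, edgeR adjusted p = 0.528). MRPL10, which anchors MRPL12 to the ribosome, had 54.2, 64.9 and 50.3 CPM in the ZEB1 libraries, against 66.9, 63.8 and 66.9 CPM in the controls. Control replicate 2 lay just below ZEB1 replicate 2, and the log2 fold change of -0.23 (SE 0.20) was the lowest of the large subunit.

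MRPL49 and MRPL4 had the next lowest values, also close to their errors. MRPL49 (chr11:65122183-65127371), a mitochondria-specific protein, had 43.5, 44.4 and 38.1 CPM in the ZEB1 libraries, against 47.6, 50.7 and 46.3 CPM in the controls, all below (log2 fold change -0.21, SE 0.23). MRPL4, whose bacterial counterpart lines the exit tunnel, had 147, 120.3 and 179 CPM in the ZEB1 libraries, against 169.7, 182 and 145 CPM in the controls, with overlap (log2 fold change -0.15, SE 0.17). MRPL49 overlaps SYVN1 and MRPL4 overlaps the noncoding gene LIMASI. The edgeR adjusted p was 0.799 to 0.934 for MRPL10, MRPL49, MRPL4 and MRPL12.

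**Figure D4:**
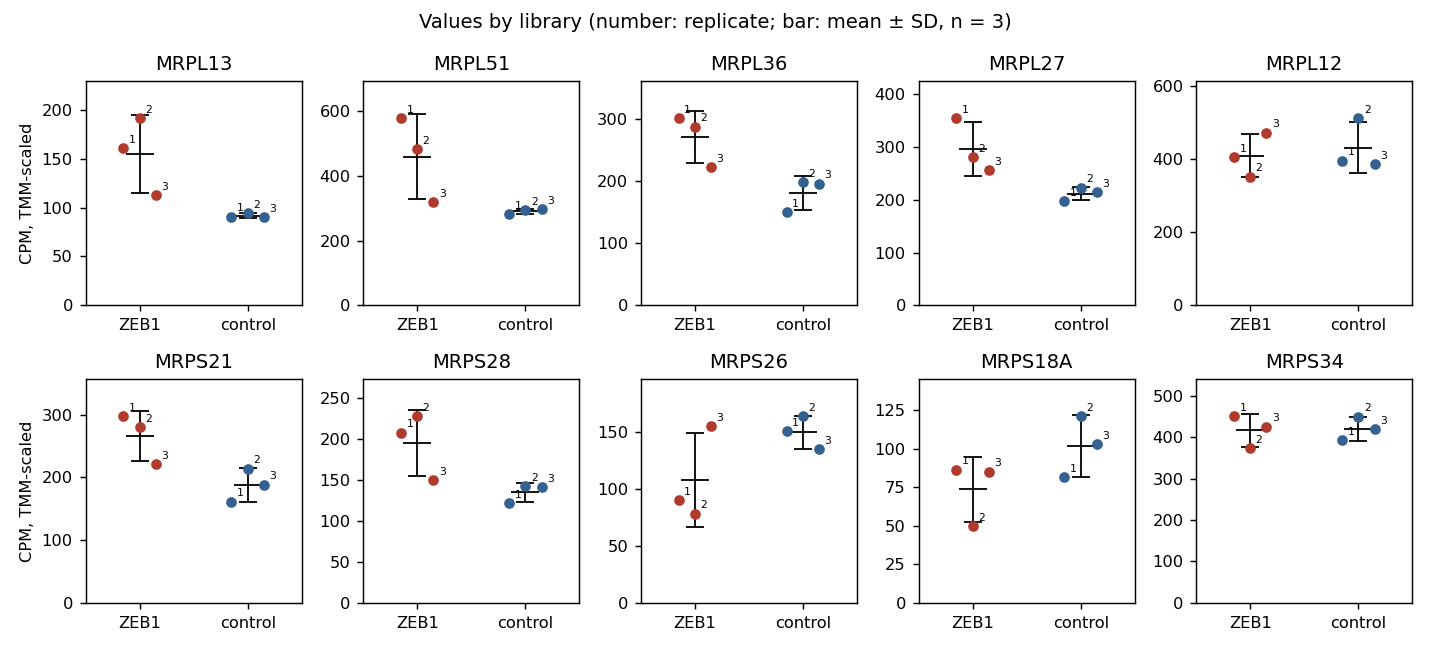
CPM (TMM-scaled, y axis from 0) of 10 genes in each library, with the replicate number beside each point and bars for the mean ± SD (n = 3), ZEB1 vector left and control vector right. For MRPL13, MRPL51, MRPL36, MRPL27, MRPS21 and MRPS28 all ZEB1 points lie above the control points, with replicate 3 the lowest of the ZEB1 points, and for MRPL12 and MRPS34 the groups lie at the same height.

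In the small subunit, the proteins of bacterial descent MRPS21 and MRPS28 had the smallest p-values. MRPS21 (chr1:150293861-150308979) had 298, 279.7 and 221 CPM in the ZEB1 libraries, against 161, 214 and 188 CPM in the controls, without overlap (log2 fold change 0.50, SE 0.16, edgeR adjusted p = 0.276). RefSeq lists 9 pseudogenes of it, and how the counting treated reads shared with them is not stated, so its value is uncertain. The same limit applies to all 41 genes of the 2 subunits that have a RefSeq pseudogene. Among these are MRPL51 with 2 and MRPL36 with 1. MRPS28, which has a readthrough gene with TPD52, had 208, 228 and 150.1 CPM in the ZEB1 libraries, against 122, 142 and 142 CPM in the controls, without overlap (log2 fold change 0.52, SE 0.17, edgeR adjusted p = 0.285).

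MRPS17, a protein of bacterial descent with 6 pseudogenes, had 91.5, 50.8 and 46.5 CPM in the ZEB1 libraries, against 27.9, 41.2 and 49.8 CPM in the controls. The groups overlapped, with ZEB1 replicate 1 high and control replicate 1 low among the 6 libraries (log2 fold change 0.63, SE 0.28, edgeR adjusted p = 0.485). MRPS33, a mitochondria-specific protein with 4 pseudogenes, had 141, 114 and 116 CPM in the ZEB1 libraries, against 90.0, 96.6 and 96.0 CPM in the controls, without overlap (log2 fold change 0.39, SE 0.17, edgeR adjusted p = 0.485). MRPS6, the counterpart of bacterial S6, had 181, 174 and 108 CPM in the ZEB1 libraries, against 111, 118 and 112 CPM in the controls. ZEB1 replicate 3 lay below every control (log2 fold change 0.42, SE 0.19, edgeR adjusted p = 0.495), and the locus overlaps the transporter gene SLC5A3. With ZEB1 replicate 3 as the only ZEB1 library the value was -0.09.

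The lowest small subunit values came from MRPS18A, MRPS26 and MRPS2. MRPS26 (chr20:3046052-3048250), specific to mitochondria, had 90.6, 78.5 and 155 CPM in the ZEB1 libraries, against 151, 164 and 135 CPM in the controls. ZEB1 replicates 1 and 2 lay below every control, while replicate 3 lay among them (log2 fold change -0.44, SE 0.21, edgeR adjusted p = 0.528), and with replicate 3 as the only ZEB1 library the value was 0.04. MRPS2, the counterpart of bacterial S2, had 121, 99.0 and 142 CPM in the ZEB1 libraries, against 145, 148 and 149 CPM in the controls, all below (log2 fold change -0.28, SE 0.17, edgeR adjusted p = 0.649). MRPS34, the most deeply counted small subunit gene, had 451, 373 and 424 CPM in the ZEB1 libraries, against 392, 449 and 419 CPM in the controls (log2 fold change -0.01, SE 0.14), and its locus overlaps EME2.

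Mammals have 3 paralogs of the bacterial protein S18, and they did not share a direction. MRPS18C, the paralog at the bacterial position in the small subunit, had 132, 137 and 72.1 CPM in the ZEB1 libraries, against 94.96, 78.0 and 67.4 CPM in the controls, with overlap (log2 fold change 0.48, SE 0.22, edgeR adjusted p = 0.520). MRPS18B had 352, 280.4 and 345 CPM in the ZEB1 libraries, against 334, 304 and 305 CPM in the controls (log2 fold change 0.05, SE 0.15, edgeR adjusted p = 0.948). MRPS18A had 86.2, 49.5 and 84.9 CPM in the ZEB1 libraries, against 81.3, 121 and 103 CPM in the controls, with overlap (log2 fold change -0.46, SE 0.22, edgeR adjusted p = 0.528). Differences between the paralogs were not tested. MRPS18C has 6 RefSeq pseudogenes and overlaps ABRAXAS1, and MRPS18A overlaps RSPH9.

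Despite their names, MRPS18A and MRPS30 are known to sit in the large subunit of the mammalian mitoribosome. MRPS30 had 50.6, 39.9 and 22.9 CPM in the ZEB1 libraries, against 23.7, 26.4 and 27.9 CPM in the controls. Replicates 1 and 2 lay above and replicate 3 below every control, and the fold change was 0.50 on the log2 scale (SE 0.30, edgeR adjusted p = 0.659). The 2 proteins of the large subunit with small subunit names thus had values of opposite sign. MRPS24 had 1 count in ZEB1 replicate 2 and 1 count in control replicate 2 and was at 0 in the other 4 libraries, and it was the gene of the 77 that the low-count filter removed. Its locus (chr7:43866558-43869517) lies within that of the readthrough gene URGCP-MRPS24, itself at 0 in every library, and whether the counting left out reads shared by both was not tested. The tested genes all had at least 27 counts in every library.

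Genes with and without a bacterial counterpart were both among the higher ones. Of 29 large subunit proteins with a bacterial counterpart, 13 were higher at an unadjusted p under 0.05 with a median log2 fold change of 0.37, and of 20 without a counterpart 7 were higher with a median of 0.26. In the small subunit 5 of 15 tested genes assigned a counterpart were higher and 0 lower, with a median of 0.20. Of the other 12, 1 was higher and 2 were lower, MRPS26 and MRPS18A, with a median of 0.21. These 12 include MRPS18A and MRPS18B, which are paralogs of bacterial S18 at other positions, so the assignment of 1 of the 2 lower genes is open to choice. Over all tested genes 5.83% were higher and 3.57% lower by this measure.

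The promoters of the 26 genes higher at an unadjusted p were looked at beside the rest, as a description. The ETS letters stood in 14 of the 23 that have a matched promoter (60.9%) and in 15 of the other 46 (32.6%). The YY1 letters stood in 3 of 23 (13.0%) and 10 of 46 (21.7%), the NRF1 letters in 6 (26.1%) and 5 (10.9%), and the E-box in 5 (21.7%) and 8 (17.4%). The other 46 include MRPS24, which has no fold change and holds a YY1 match. The ETS and NRF1 letters were thus more frequent, and the YY1 letters less frequent, among the genes higher at an unadjusted p, without a test. That split is by p-value in these same data and does not rank the genes by fold change. MRPS30 (log2 fold change 0.50) is among the other 46, while MRPL11 (0.36) is among the 23. Nothing about the binding of these factors follows from the letters.

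Lower fold changes also went with higher GC content in both subunits, and with longer transcripts in the large subunit. Over the 49 large subunit genes the rank correlation of log2 fold change was -0.39 with transcript length and -0.24 with GC content. Over the 27 small subunit genes it was -0.06 with length and -0.55 with GC content, beside -0.10 and -0.22 over 11140 tested genes. These are correlations across genes of the same libraries, and genes are not independent replicates. The 76 tested genes had a median length of 865 bases and 50.5% GC, beside 1000 bases and 49.4% over all tested genes. With each library's trends in length, GC content and abundance removed, an alternative added after seeing the data, the medians were 0.33 and 0.20, beside 0.04 over all genes.

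Other genes of mitochondrial translation were examined as lists, and 0 of their 103 tested genes passed edgeR's adjusted threshold. They were counted less deeply than the MRPL genes, with a median mean CPM of 37.3 beside 122. Their median SE was 0.28 beside 0.19, so numbers of genes past a p-value are not like for like. At an unadjusted p under 0.05, 3 were higher (2.91%) and 4 lower (3.88%), beside 5.83% and 3.57% over all genes. Without ZEB1 replicate 3 these counts were 5 and 8, beside 8.59% higher and 9.41% lower over all genes. There were 2 genes lower without ZEB1 replicate 2, control replicate 2 or control replicate 3, beside 3.64%, 2.25% and 1.83% over all genes. The 5 mitoribosomal proteins with other symbols had a median log2 fold change of 0.11 with 0 past that p. Among them GADD45GIP1, a large subunit protein, had 1039, 731 and 736 CPM in the ZEB1 libraries, against 674, 843 and 774 CPM in the controls (log2 fold change 0.13). AURKAIP1 and CHCHD1, both of the small subunit, had log2 fold changes of 0.04 and 0.23.

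The 13 translation factors had a median of 0.04 with 0 past the unadjusted p. They include the elongation factor TUFM (-0.12), the release factor MTRF1L (0.04) and MTRFR (-0.36), which acts in rescue of stalled mitoribosomes. The 29 assembly factors had a median of -0.07, with METTL15 higher (1.03) and METTL17 (-0.93) and MPV17L2 (-0.57) lower at an unadjusted p. METTL15 methylates the small subunit ribosomal RNA. It had 13, 38 and 58 counts in the ZEB1 libraries, against 62, 38 and 57 in the deeper controls. The helicase DHX30 (-0.21) and NGRN (-0.13) were the assembly factors with the highest mean CPM. The 22 tRNA synthetases and related enzymes had a median of -0.13, with SARS2, which charges serine tRNA, lower at an unadjusted p (-0.84), and KARS1 at -0.06 and GARS1 at -0.16.

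The 23 genes of mitochondrial transcription and RNA handling had a median of 0.09, with SLIRP and SSBP1 higher and LRPPRC lower at an unadjusted p. SLIRP had 1709, 1129 and 718 CPM in the ZEB1 libraries, against 583, 761 and 593 CPM in the controls, with overlap (log2 fold change 0.87, SE 0.22, edgeR adjusted p = 0.199). LRPPRC, whose protein binds SLIRP and with it stabilises mitochondrial mRNAs, had 58.6, 39.2 and 67.6 CPM in the ZEB1 libraries, against 93.8, 76.6 and 88.8 CPM in the controls, all below (log2 fold change -0.63, SE 0.22, edgeR adjusted p = 0.303). The values of these 2 partners were thus opposite in sign. SSBP1, the single-stranded DNA binding protein of mitochondria, had a log2 fold change of 0.48 (SE 0.18, edgeR adjusted p = 0.358). Without ZEB1 replicate 3, SLIRP (1.13) and SSBP1 (0.66) were called, with edgeR adjusted p of 0.00225 and 0.0209.

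Of 12 nuclear regulators all but PPARGC1A were tested, with a median of -0.22 and 0 past the unadjusted p. GABPA, the ETS factor named above, had 11.6, 15.4 and 13.7 CPM in the ZEB1 libraries, against 16.7, 29.2 and 20.4 CPM in the controls, all below (log2 fold change -0.69, SE 0.37, edgeR adjusted p = 0.595). NRF1, named for its letters above and not by the rule, had a log2 fold change of -0.74 (SE 0.45). It had 3.55, 11.6 and 10.1 CPM in the ZEB1 libraries, against 13.3, 17.5 and 13.2 CPM in the controls. These values rest on 4, 18 and 34 counts in the ZEB1 libraries and 81 to 96 in the deeper controls. The log2 fold change was 0.07 for YY1 and -0.15 for MYC.

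**Figure D5:**
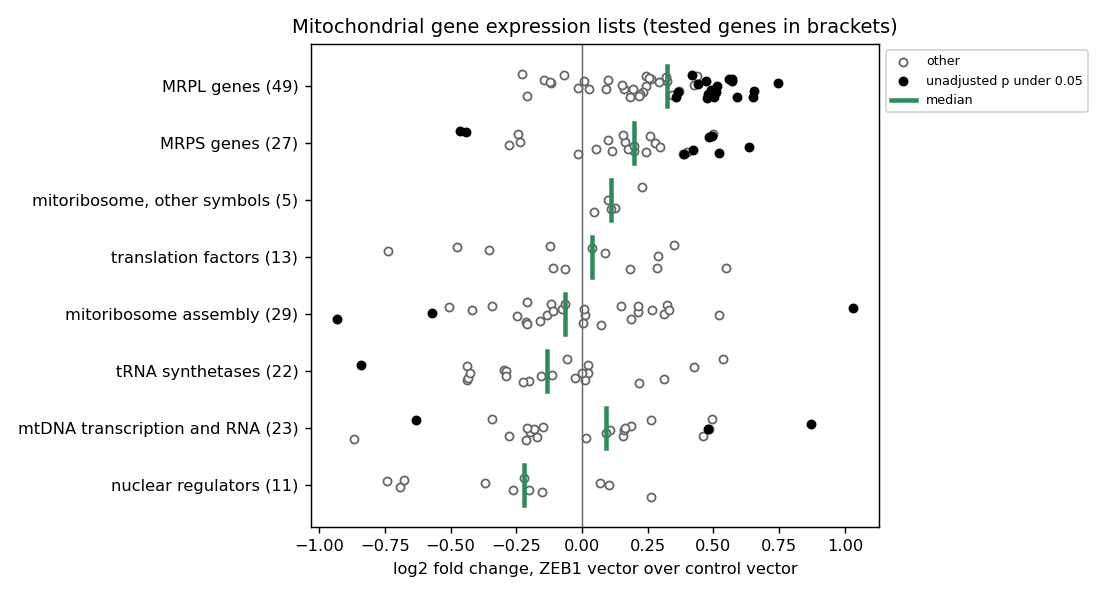
Log2 fold change (ZEB1 vector over control vector, x axis) of each tested gene in the large and small subunit and in 6 lists of other mitochondrial gene expression genes, with filled points for an unadjusted p under 0.05 and a green bar at the median. The medians are 0.32 and 0.20 for the MRPL and MRPS genes and between -0.22 and 0.11 for the other lists.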

How the data were processed

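Raw gene-level counts, keyed by Entrez ID, were deposited by the authors for 6 DRUG-seq libraries, a low-cost multiplexed form of RNA-seq, from TC28a2 cells. The tools HISAT2, featureCounts and Subread, and the build GRCh38, are listed in the submitters' processing notes. Not given in the sources used here: whether molecular identifiers were collapsed, the strand setting and the annotation release. Uncollapsed reads would not be independent molecules. Symbols, coordinates, overlaps, pseudogenes and promoters came from RefSeq tables of GRCh38.p14, which matched 27745 of 28395 IDs, and transcript lengths and GC content from GENCODE v29.

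The edgeR package (4.0.16, R 4.3.3) was run on the counts of all genes (glmQLFTest, TMM, robust dispersions, filterByExpr, group as the only term, two-sided, Benjamini-Hochberg threshold of 0.05 over 11329 genes). Log2 CPM used a prior count of 2, and SEs were derived from F statistics and are approximate. The steps were tested on simulated counts. Named genes are, per subunit, the 5 with the smallest p, the 3 with the highest mean CPM and the 3 with the lowest fold change, with the MRPS18 paralogs, MRPS30 and any untested gene. From each list they are the 2 with the highest mean CPM and the 1 with the smallest p. LRPPRC, METTL15, MPV17L2, NRF1, MRPL11, MRPL54, MRPL58 and the genes called under alternatives were named after their values were seen. Bacterial descent and the lists were assigned by hand from general knowledge. The genes and lists were chosen with earlier results of these data known. Alternatives were RLE and upper-quartile factors, library size only, no low-count filter, a mean count of at least 20, thinning, a replicate block, each library left out, DESeq2 1.42.0, limma-voom (limma 3.58.1), no robust estimation and an adjusted threshold of 0.1. Added after seeing the data were voom quality weights, a table without the ZEB1 row, ZEB1 replicates 1 and 2 both left out, and trends in length, GC content and abundance removed, also with the block.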

Additional observations from a re-analysis of the deposited data

How the results depend on the processing

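Depth limits the ZEB1 libraries most, where 3 counts stand for 2.35, 1.85 and 0.905 CPM in replicates 1, 2 and 3, against 0.510 to 0.560 CPM in the controls. The median log2 fold changes kept their sign under every alternative run, with 0.23 to 0.44 (large) and 0.07 to 0.31 (small) on leaving out single libraries. Library size as the only scaling moved the median of all genes to -0.14, beside 0.19 and 0.06 for the large and small subunit, so relative to that shift both stayed higher.

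Calls at the adjusted threshold were 3 large subunit genes (MRPL13, MRPL33 and MRPL51) without a low-count filter, where 0.6% of all genes passed as higher, and 4 (these and MRPL36) with quality weights, where 1.3% did. DESeq2 called 8 large and 2 small. Leaving out single libraries gave 0 to 12 large higher, 0 to 4 small higher and 0 to 1 small lower, the upper ends all without ZEB1 replicate 3. The other lists had 1 gene called higher without a low-count filter (SLIRP) and 0 to 2 on leaving out single libraries. Without a low-count filter the median of all genes was -0.08.

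At an unadjusted p under 0.05, large subunit genes higher were 10 with library size only and 10 to 25 on leaving out single libraries. Small subunit genes higher were 2 with library size only, 3 with trends removed, 2 with trends removed and the block, and 2 to 9 on leaving out single libraries. Small subunit genes lower were 0 with RLE or upper-quartile factors, a mean count of at least 20, DESeq2, or trends removed with the block. They were 1 with thinning or trends removed, and 0 to 4 on leaving out single libraries. The other lists had 8 lower with library size only, 2 lower with DESeq2, limma-voom, quality weights or trends removed, and 1 higher and 2 lower with trends removed and the block. Leaving out single libraries gave 2 to 5 higher and 2 to 8 lower there.

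Over all genes the shares higher and lower at this p were 3.06% and 7.12% with library size only, 5.71% and 3.09% with trends removed, and 4.24% and 2.99% with the block added. The shares lower were 3.2% with RLE factors, 3.31% with upper-quartile factors, 3.46% with the mean count filter, 3.63% with thinning, 1.87% with DESeq2, 3.05% with limma-voom and 3.41% with quality weights. On leaving out single libraries they were 3.05% to 8.59% higher and 1.74% to 9.41% lower.

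With ZEB1 replicates 1 and 2 both left out, 1 large subunit gene was higher and 1 lower at an unadjusted p, and 0 small subunit genes were in either direction, beside 2.93% and 4.63% of all genes. The spread then comes from the 3 controls and the lone ZEB1 library is assumed to vary like them, although the biological coefficient of variation was 35.2% among the ZEB1 libraries and 18.8% among the controls, so these p-values say nothing about stability.

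By sign, large subunit genes lower were 11 with library size only, 14 with both ZEB1 replicates left out and 4 with trends removed, beside 64.2%, 52.8% and 45.7% of all genes, and small subunit genes lower were 5 to 11 on leaving out single libraries. With library size only, 2 large and 3 small subunit genes lay below all controls, beside 12.5% of all genes. The causes were not tested.

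The replicate numbers showed no sign of pairing the libraries: the correlations of same-numbered deviations were -0.03, -0.01 and 0.01. Such correlations cannot show whether same-numbered libraries were handled together, which the labels do not give. With the replicate block, 0 genes of either subunit were called, 16 large were higher, 4 small were higher and 1 lower at an unadjusted p, 2 genes of the other lists were lower, beside 4.43% higher and 3.33% lower over all genes, and the medians were 0.31 and 0.19.

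Among named genes, the sign turned where the value was near 0 or rested on ZEB1 replicates 1 and 2. With both of these left out MRPL12 was 0.125, MRPL4 0.109, MRPS18C -0.160, MRPS26 0.044, MRPS30 -0.188, MRPS34 0.0092 and MRPS6 -0.087. With trends removed MRPL12 was 0.066, MRPL4 0.032 and MRPS34 0.121, and with the block added 0.069, 0.032 and 0.121, with MRPS18B at -0.0039. MRPS18B was -0.085 with library size only. MRPS34 was 0.0040 with RLE factors and 0.0003 with the mean count filter. On leaving out single libraries MRPL12 ran from -0.196 to 0.070, MRPS34 from -0.077 to 0.053 and MRPS18B from -0.0072 to 0.143.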
